A study of Ictidomys tridecemlineatus with 5 samples.

Results

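Genes of the melatonin pathway and of the output arm of the circadian clock were followed in the eye and retina of the thirteen-lined ground squirrel, a day-active rodent (Ictidomys tridecemlineatus). The genes were chosen by name: a transcript belonged to one of them when its best Swiss-Prot hit carried one of 10 entry names (SNAT, HIOM, TPH1, MTR1A, MTR1B, DBP, TEF, HLF, NOCT and CIART). Of these 10, 6 were found in both tissue tables (SNAT, MTR1A, DBP, TEF, HLF and NOCT), among 13949 Swiss-Prot names shared by the tables. TPH1 was found in the retina table only, and no transcript was found under HIOM, MTR1B or CIART. The members held 18 of the 61797 eye transcripts with a hit and 26 of the 62889 retina transcripts with a hit.

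RNA came from whole eye (2 libraries) and isolated retina (3 libraries) of wild-type animals, and the labels say that RNA of 4 ground squirrels was pooled for library preparation. The sources used here give no age, sex, season or time of day of collection. Each tissue has 1 table with 1 value per transcript, so a difference between tissues has no replicate check and no test was run. Levels are in RPKM, the read count scaled to transcript length and to library depth. The values correspond to whole numbers of reads out of totals of 264219334 for eye and 355988270 for retina, and the 95% Poisson intervals below cover counting error only.

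Melatonin is the hormone of darkness. It is made from tryptophan by way of serotonin: tryptophan hydroxylase and an aromatic decarboxylase make serotonin, AANAT acetylates it in the rate-limiting step, and ASMT adds the methyl group. Pineal cells and retinal photoreceptors carry out this synthesis, mainly at night, and melatonin acts through the G protein-coupled receptors MTNR1A and MTNR1B. The clock also drives output genes, among them the D-box transcription factors DBP, TEF and HLF and the nocturnal enzyme NOCT, while CIART represses the CLOCK-BMAL1 activator.

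DBP, TEF and HLF were abundant in both tissues, AANAT was intermediate, NOCT was low, and the melatonin receptor and TPH1 stood near the bottom. Of the 6 genes found in both tables, 5 had a lower level in eye and 1, MTNR1A, a higher one. None reached a 2-fold difference in either direction on the log2(RPKM + 1) scale, although the plain RPKM ratio of MTNR1A was 2.18. Over all 13383 proteins compared (1 RPKM or more in either tissue, a mark that all 6 shared members met), the eye level was 2-fold or more above the retina level for 11.8% and the retina level 2-fold or more above the eye level for 3.6%. By any amount, 49.7% were higher in eye and 50.3% in retina. A difference here is log2(eye RPKM + 1) minus log2(retina RPKM + 1), with levels taken from the highest transcript of each protein. This scale understates the difference of low genes. The median difference over the 6 members was -0.39, beside -0.0035 over all proteins. That members' median was 0.27 when the longest transcript of each protein was used. In tissue RNA, fewer cells of a type and less RNA per cell cannot be told apart.

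**Figure D1:**
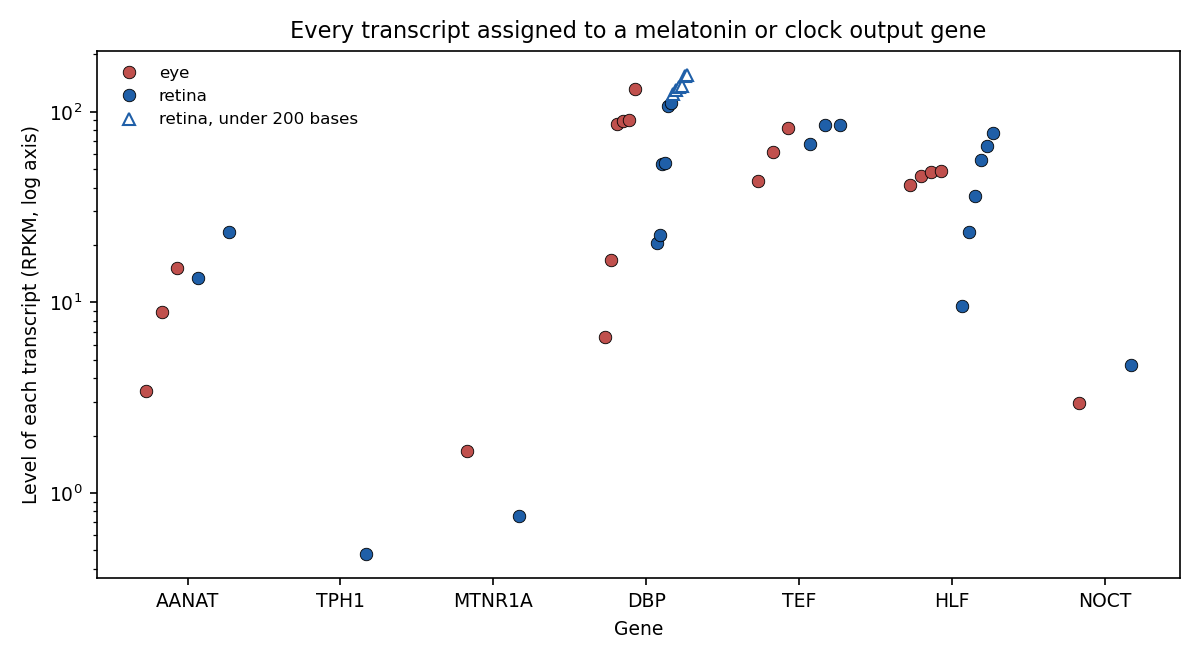
Level of every transcript assigned to a member gene, in RPKM on a log axis, by gene and tissue, with 1 point per transcript. DBP transcripts span 6.61 to 130.9 RPKM in eye and 20.5 to 156.5 in retina, where the 6 highest are under 200 bases (open triangles), and TPH1 has a retina point only.

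Whole eye contains the retina. Of 11 photoreceptor marker names, 9 were found in both tables and all 9 had a lower level in eye, with a median difference of -0.69 and a summed level of 3546 RPKM in eye and 6660 in retina. All 7 markers of inner retinal neurons were also lower in eye, with a median difference of -0.72. By the highest transcript the 3 markers of Mueller glia were higher in eye, RLBP1 and GLNA by 0.10 each and VIME by 1.21. With an equal total they stood at -0.17, -0.18 and 0.93. The direction of RLBP1 and GLNA depended on the transcript. With the lowest E-value transcript they stood at -1.94 and -0.73, and with the longest transcript at 0.31 and 5.53. Each was higher in retina in 4 of 15 settings. VIME was higher in eye in all 15, from 0.52 with length-weighted means to 4.015 with sums. Its highest transcript had 276 bases in eye and 2364 in retina. Of 25 markers of pigment epithelium, lens, cornea, muscle, ciliary body and blood, 19 were in both tables and 18 of these were higher in eye. Their summed level was 28132 RPKM in eye and 866 in retina, and MIP, CRGD, K1C13, K2C3, MYH2 and MYOC were found in the eye table only. Some levels in the sums came from short eye transcripts, such as CRYAA (147 bases), K1C13 (123) and the photoreceptor marker ARRC (139). The shares of these tissues move with every difference below, and their part in the differences was not tested.

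Transcripts of serotonin synthesis were scarce in both tissues. TPH1, the tryptophan hydroxylase of pineal and gut, had 1 retina transcript of 1731 bases at 0.479 RPKM (95% Poisson interval 0.426 to 0.537, 295 reads). That level exceeded those of only 4.65% of the proteins in the retina table. The transcript aligned to human TPH1 over 377 residues with 98% positives, so its assignment rests on a long match. TPH2, the hydroxylase of brain serotonin neurons, was looked at after its values were seen. Its 1 eye transcript stood at 0.715 RPKM (0.624 to 0.816) and its 3 retina transcripts at 0.790, 1.03 and 1.11 RPKM. The TPH2 levels thus lay above that of TPH1 in retina, beyond counting error. These 3 TPH2 transcripts aligned over 302, 206 and 227 residues. Counting error does not cover such unlike stretches, or reads counted on more than 1 transcript. DDC, the decarboxylase that completes serotonin, reached 0.324 RPKM in eye against 0.551 for retina, both under the mark for comparison.

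AANAT, the enzyme that sets the rate of melatonin synthesis, stood well above the hydroxylases. Its 3 eye transcripts had levels of 3.45, 8.86 and 15.1 RPKM, and its 2 retina transcripts 13.5 and 23.4 RPKM. The ranges overlapped, and the highest value was in retina. The highest transcripts, of 1485 bases in eye and 1613 in retina, matched the same golden hamster entry over 198 residues with the same bit score, and rested on 5926 and 13419 reads. Between them the level was 1.55 times higher in retina, a difference of -0.60 (95% counting interval -0.64 to -0.56). The gene's level exceeded those of 68.6% of proteins in eye and 78.8% in retina.

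The AANAT transcripts were not all alike. The lowest eye transcript, of 727 bases at 3.45 RPKM (3.19 to 3.72), matched the rhesus entry over 199 residues with 94% positives and a bit score of 393.7. The more abundant transcripts matched the hamster entry with 86% positives and a bit score of 335.1. The remaining transcripts, of 826 bases in eye and 888 in retina, aligned over 106 and 101 residues only. Taking the transcript with the lowest E-value therefore set 3.45 RPKM in eye against 23.4 in retina, a difference of -2.45. AANAT was lower in eye in all 15 settings run, the highest value being -0.41 with transcripts summed.

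ASMT, the last enzyme of the pathway, had no transcript under the entry name HIOM in the tables as used here. The symbol is among the RefSeq gene names of the species. No other entry name of ASMT was looked for, so this is no measurement of the gene. The related protein ASMTL, entry ASML, was found, and was looked at after its values were seen. It had 4 eye transcripts at 4.45 to 9.93 RPKM and 3 retina transcripts at 4.05 to 6.52 RPKM. Its highest transcripts differed by 0.54, but by -0.32 between transcripts of matched alignment.

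The melatonin receptor MTNR1A, which couples to inhibitory G proteins, was scarce in both tissues. Its only eye transcript stood at 1.66 RPKM (1.58 to 1.74, 1755 reads) and its only retina transcript at 0.761 RPKM (0.685 to 0.842, 368 reads). It was the 1 member with a higher level in eye, with a ratio of 2.18 between the RPKM values. On the log2(RPKM + 1) scale the difference was 0.59 (0.52 to 0.67), and with a pseudocount of 0.1 it was 1.03. Both transcripts aligned to the mouse receptor over the same 353 residues with 92% positives. They differed in length, at 4011 bases in eye and 1359 in retina, so that aligned codons made up 26.4% of the eye transcript and 77.9% of the retina transcript. The values are thus averages over stretches that differ in length. No transcript was found under MTR1B, the second receptor.

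The D-box factors DBP, TEF and HLF were the most abundant members by the highest transcript. They belong to the PAR bZIP family, which binds D-box elements through a basic leucine zipper and relays the clock to downstream genes. Because this domain is alike in the 3 proteins, short transcripts of one may share reads with another, and their levels are uncertain to that extent. By the highest transcript the order of RPKM levels was DBP, TEF, HLF, AANAT, NOCT and MTNR1A in both tissues, with TPH1 last in retina. AANAT, NOCT, MTNR1A and TPH1 kept that order among themselves under 6 ways of taking a level. Of these, NOCT, MTNR1A and TPH1 had at most 1 transcript in each tissue, so only AANAT could have changed place. The order of DBP, TEF and HLF did not hold: TEF stood above DBP with length-weighted means (75.8 against 64.6 RPKM in eye, 80.3 against 66.6 in retina), and HLF above TEF in retina with sums (268.6 against 238.9). With the longest transcript HLF stood below AANAT in retina (9.61 against 23.4 RPKM).

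DBP had 6 eye transcripts, with levels of 6.61, 16.7, 86.0, 89.6, 90.2 and 130.9 RPKM. Its 12 retina transcripts ranged from 20.5 to 156.5 RPKM with a median of 117.3. The 6 highest of these, at 123.5 to 156.5 RPKM, were fragments of 103 to 123 bases that aligned over 34 to 40 residues. The highest transcript in eye was 966 bases long and in retina 123 bases, and they differed by -0.26 (-0.29 to -0.22). Among transcripts of 200 bases or more the highest eye transcript stood at 130.9 RPKM and the highest retina transcript at 111.0, a difference of 0.24. The most complete transcripts, of 1765 and 1748 bases, both aligned to human DBP over 326 residues and stood at 90.2 RPKM (89.4 to 91.1) in eye and 107.1 (106.3 to 107.9) in retina, a difference of -0.25. The direction for DBP thus depended on the transcript, and 3 of the 15 settings placed it higher in eye.

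**Figure D2:**
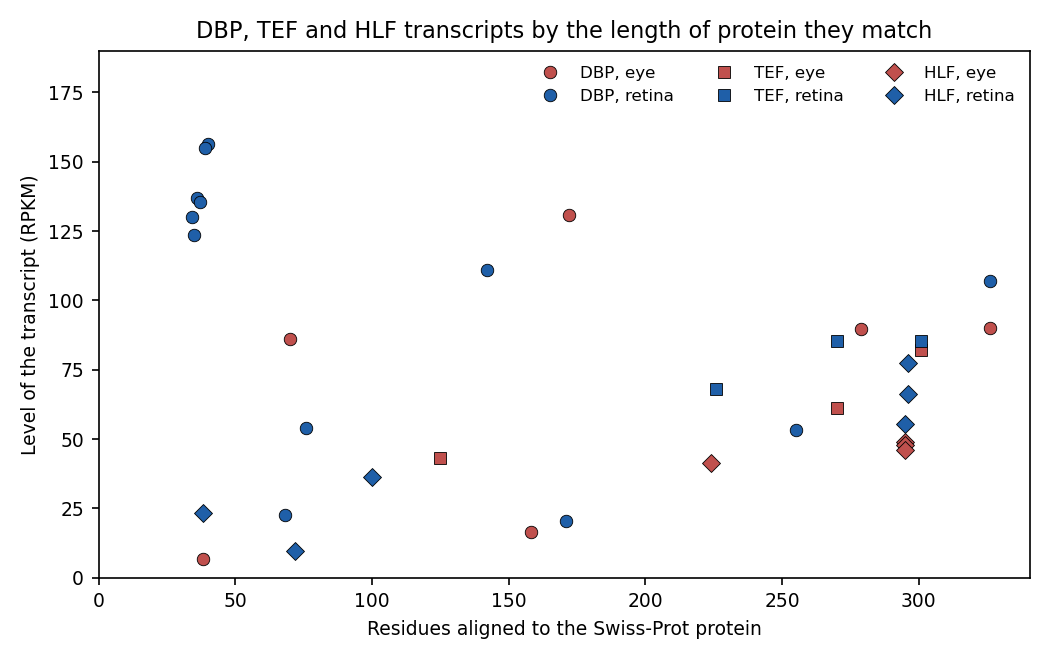
Level of each DBP, TEF and HLF transcript in RPKM against the number of residues aligned to its Swiss-Prot protein, with shape for gene and colour for tissue. The 6 retina DBP transcripts at 123.5 RPKM or above align over at most 40 residues, whereas the transcripts aligned over 326 residues stand at 90.2 RPKM in eye and 107.1 in retina.

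TEF, named for its role in thyrotroph cells of the pituitary, had the smallest difference between tissues by the highest transcript. Its 3 eye transcripts stood at 43.4, 61.3 and 82.1 RPKM and its 3 retina transcripts at 68.0, 85.4 and 85.5 RPKM. The best-aligned transcripts, of 4459 bases in eye and 4411 in retina, both matched rat TEF over 301 residues and were also the highest, with a difference of -0.06 (-0.07 to -0.05). The upper retina transcripts, of 4411 and 4416 bases, carried 134232 and 134234 reads, nearly the same number. Sums over transcripts, which gave -0.35, add both. TEF was lower in eye in all 15 settings.

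HLF, first known as a fusion partner in leukemia, had 4 eye transcripts within a narrow range of 41.4 to 49.0 RPKM. Its 6 retina transcripts spread from 9.61 to 77.6 RPKM with a median of 45.9. The highest transcripts, of 1484 and 1241 bases, aligned over 295 and 296 residues and differed by -0.65 (-0.68 to -0.63), the largest difference toward retina among the members by this measure. A retina transcript that aligned over exactly 295 residues stood at 55.5 RPKM, and against the eye transcript of the same alignment and nearest length, at 46.0 RPKM, the difference was -0.27. The longest retina transcript, 2924 bases with 72 aligned residues, was also the lowest, so the longest-transcript setting gave 2.15. The length-weighted mean gave 0.05. In the remaining 13 settings HLF was lower in eye.

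NOCT, or nocturnin, is an enzyme of the deadenylase family that peaks at night in many tissues and was described early in the frog retina. It had 1 transcript in each tissue, at 2.95 RPKM (2.82 to 3.08) in eye and 4.71 (4.57 to 4.85) in retina. Both were nearly equal in length, at 2516 and 2467 bases, and aligned to human nocturnin over 373 and 379 residues with 97% positives. The retina level was 1.60 times the eye level, a difference of -0.53 (-0.59 to -0.47), and NOCT was lower in eye in all 14 settings in which it was compared. Since each tissue had 1 transcript, the choice of transcript did not enter this value, and a pseudocount cannot change its sign. Only a rescaling of the tables could have reversed it, so the count of settings adds little.

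CIART had no transcript under that entry name. Under the older name of the same gene, C1orf51 (entry CA051), each table held 1 transcript, which the naming rule does not count and which was looked at after its values were seen. These stood at 9.42 RPKM (9.11 to 9.74) in eye and 11.2 (10.9 to 11.5) in retina, on 1395 and 1372 bases. Both aligned to the human protein over 362 residues with 82% positives. The difference was -0.22 (-0.28 to -0.17), and the level was lower in eye in all 15 settings. With 1 transcript in each tissue, the choice of transcript could not change this value, and a pseudocount cannot change its sign.

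**Figure D3:**
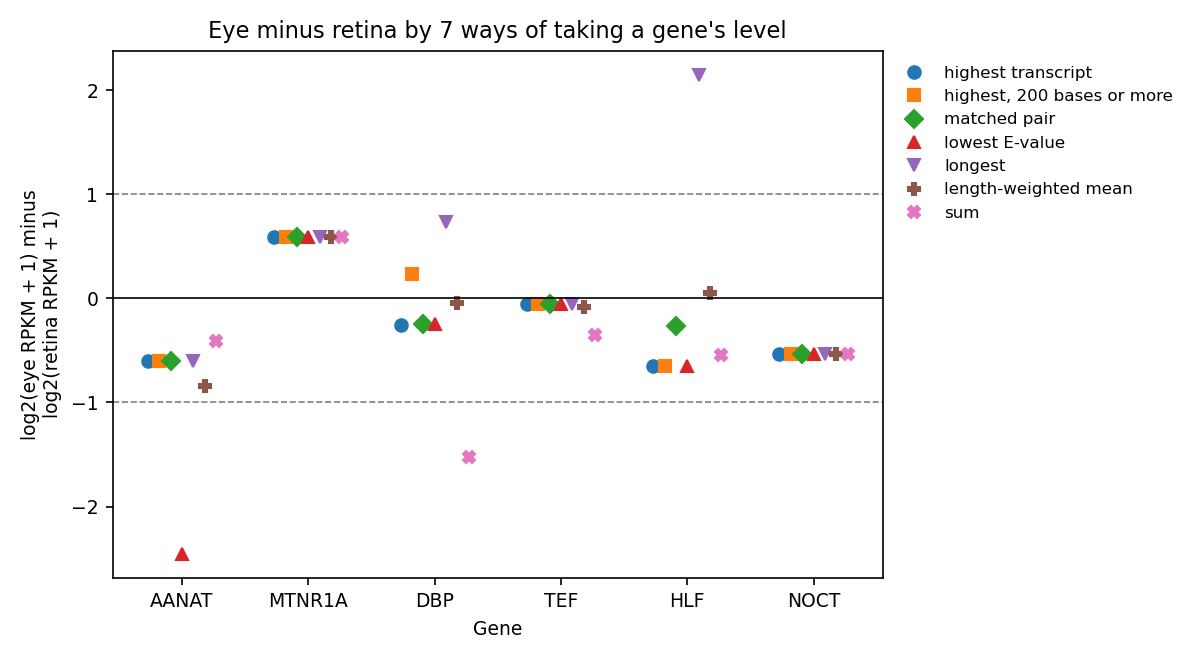
Difference of each gene, log2(eye RPKM + 1) minus log2(retina RPKM + 1), by 7 ways of choosing or combining its transcripts, with dashed lines at 2-fold. AANAT and TEF are below 0 for all 7, while DBP spans -1.52 to 0.73 and HLF -0.65 to 2.15. NOCT (-0.53) and MTNR1A (0.59) have 1 transcript in each tissue, so all 7 ways give the same value by construction.

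Genes that supply and clear serotonin and melatonin were found on both sides of 0. Of 14 supply names, 10 could be compared, 7 of them higher in eye and 3 higher in retina. Over all proteins, 49.7% were higher in eye. The median difference of the list was 0.81. This median was 0.40 with no filter, 0.41 with pseudocount 5, 0.49 with an equal total and 0.52 with the filter at 10 RPKM. For 4 the eye level was 2-fold or more above that of retina, and for none the reverse, beside 11.8% and 3.6% of all proteins. The 4 were LAT1 (SLC7A5), a tryptophan transporter, at 28.9 RPKM for eye and 9.92 for retina, and the enzymes of the tetrahydrobiopterin cofactor GCH1 (3.06 and 0.916 RPKM), PTS (6.99 and 2.71) and SPR (13.2 and 4.50). LAT1 was 2-fold higher in all 15 settings, GCH1 in 11 of 13, PTS in 11 of 14 and SPR in 14 of 15. The lowest differences were at pseudocount 5 (0.45, 0.64 and 0.94 for GCH1, PTS and SPR). LAT1 and GCH1 had 1 transcript in each tissue, so settings that change only the choice of transcript repeat their values by construction. QDPR, which regenerates this cofactor, was at 41.4 and 21.2 RPKM. PCBD1, of the same cycle, was at 48.0 and 60.0 RPKM. YWHAE and YWHAZ belong to the adaptor proteins that bind phosphorylated AANAT. They stood at 287.2 and 324.8 RPKM and at 79.3 and 73.9 RPKM, and the difference of YWHAZ, 0.10, was -0.17 after the tables had been given an equal total. YWHAE, at -0.18, was 0.16 with sums.

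Of 13 breakdown names, 8 were compared, 5 of them higher in eye and 3 higher in retina. Over all proteins, the share higher in eye was 49.7%. The list median was 1.87 (1.37 with pseudocount 5, 1.58 with the longest transcript and 2.37 with the filter at 10 RPKM). For 5 the eye level was 2-fold or more above that of retina, and for none the reverse, beside 11.8% and 3.6% of all proteins. ALDH1A1, an aldehyde dehydrogenase, had levels of 174.1 RPKM for eye and 10.6 for retina, and ALDH2 stood at 52.6 and 17.4. CYP1B1, which hydroxylates melatonin, was at 13.8 and 2.22 RPKM, the sulfotransferase SULT1A1 at 16.5 and 2.02, and the indole-cleaving IDO1 at 10.7 and 0.517. The monoamine oxidases, which degrade serotonin, were lower in eye, MAOA at 2.69 against 3.57 RPKM and MAOB at 6.16 against 8.68. They were named after their values were seen. NQO2, a reductase that also binds melatonin, was at 24.4 and 25.8 RPKM. Its difference of -0.08 ranged from -1.37 with sums to 0.46 with length-weighted means. The difference of ALDH2 was 0.95 with the longest transcript. The summed marker level of tissues outside the neural retina was also higher in eye (28132 against 866 RPKM), and its part in these differences was not tested.

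Of 27 receptor signalling names, 26 were compared, 22 of them lower in eye, beside 50.3% of all proteins. At least 2-fold, 1 was higher in retina and none in eye, beside 3.6% and 11.8% of all proteins. The median difference was -0.31 (-0.63 with sums and -0.57 with an equal total). Photoreceptor and inner retinal neuron markers had medians of -0.69 and -0.72, and the part of retinal tissue share in these differences was not tested. The G protein subunit GNAO1 had levels of 70.1 and 134.0 RPKM. GNAI2, an inhibitory subunit through which melatonin receptors can signal, was at 79.9 and 40.4 RPKM. Of protein kinase A, the regulatory subunit PRKAR1A was at 101.1 and 109.7 RPKM and the catalytic subunit PRKACA at 57.1 and 42.2. The regulatory subunit changed sign with the longest transcript (0.12). The adenylate cyclase ADCY8 was at 2.37 and 6.48 RPKM, a difference of -1.15, which was 2-fold in 9 of 14 settings and -0.48 with the longest transcript. The dopamine receptor DRD4, which opposes melatonin in photoreceptors and was picked after its values were seen, was at 31.9 and 54.3 RPKM.

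The core clock genes, upstream of these outputs, had 20 of 22 names compared, 13 of them lower in eye, beside 50.3% of all proteins. None was at 2-fold by the highest transcript, beside 11.8% of all proteins toward eye and 3.6% toward retina. The median difference was -0.25. This median was -0.04 with transcripts of matched alignment, -0.16 with pseudocount 5, -0.39 with the filter at 10 RPKM, -0.43 with sums and -0.49 with an equal total. In eye and retina, CRY2 stood at 50.1 and 62.8 RPKM, NR1D1 at 79.3 and 153.2, BHLHE41 at 35.2 and 56.1, and CSNK1E at 37.9 and 31.3. Transcripts of matched alignment reversed CRY2 (0.36), those of lowest E-value BHLHE41 (0.08), and an equal total CSNK1E (-0.002). NR1D1, at -0.94, ranged from -2.53 with sums to -0.53 with length-weighted means. It passed 2-fold toward retina in 2 of 15 settings, and CRY2 and BHLHE41 did so in 1 each. All 10 deadenylases and relatives of NOCT were compared, 7 of them lower in eye, beside the same 50.3%, and none at 2-fold. Their median difference was -0.17 (-0.05 with the filter at 10 RPKM, -0.30 with sums and -0.42 with an equal total). They included CNOT7 at 30.3 and 33.1 RPKM, CNOT8 at 12.7 and 12.5, ANGEL1 at 8.25 and 8.80 and PARN at 7.16 and 5.68. The small differences of CNOT7, CNOT8 and ANGEL1 changed sign in at least 1 setting.

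Of 17 names of other clock outputs, 10 were compared, 7 of them higher in eye, beside 49.7% of all proteins. The median difference was 0.31 (0.06 with an equal total and 0.11 with the filter at 10 RPKM). For 2 the eye level was 2-fold or more above that of retina, and for none the reverse, beside 11.8% and 3.6% of all proteins. The 2 were TSC22D3, a glucocorticoid-induced leucine zipper protein, at 113.5 RPKM for eye and 45.4 for retina, and the transcription factor KLF10 at 8.04 and 3.35. KLF10 was 2-fold higher in 12 of 14 settings, with 0.64 at pseudocount 5. With 1 transcript of KLF10 in each tissue, settings that change only the choice of transcript repeat its value by construction. PDXK, a pyridoxal kinase known as a target of the PAR bZIP factors, was at 25.8 and 21.8 RPKM. HSF1 was at 25.8 and 29.3 RPKM, and NR1I3, a nuclear receptor, at 16.9 and 17.3. NR1I3 had 1 transcript in each tissue and could not be compared under the strict E-value limit given at the end. Its match thus missed that limit in at least 1 tissue, and the assignment of its level is uncertain to that extent. The difference of PDXK was 0.23, but -0.03 with an equal total. That of HSF1 was -0.18, but 1.04 with the longest transcript.

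**Figure D4:**
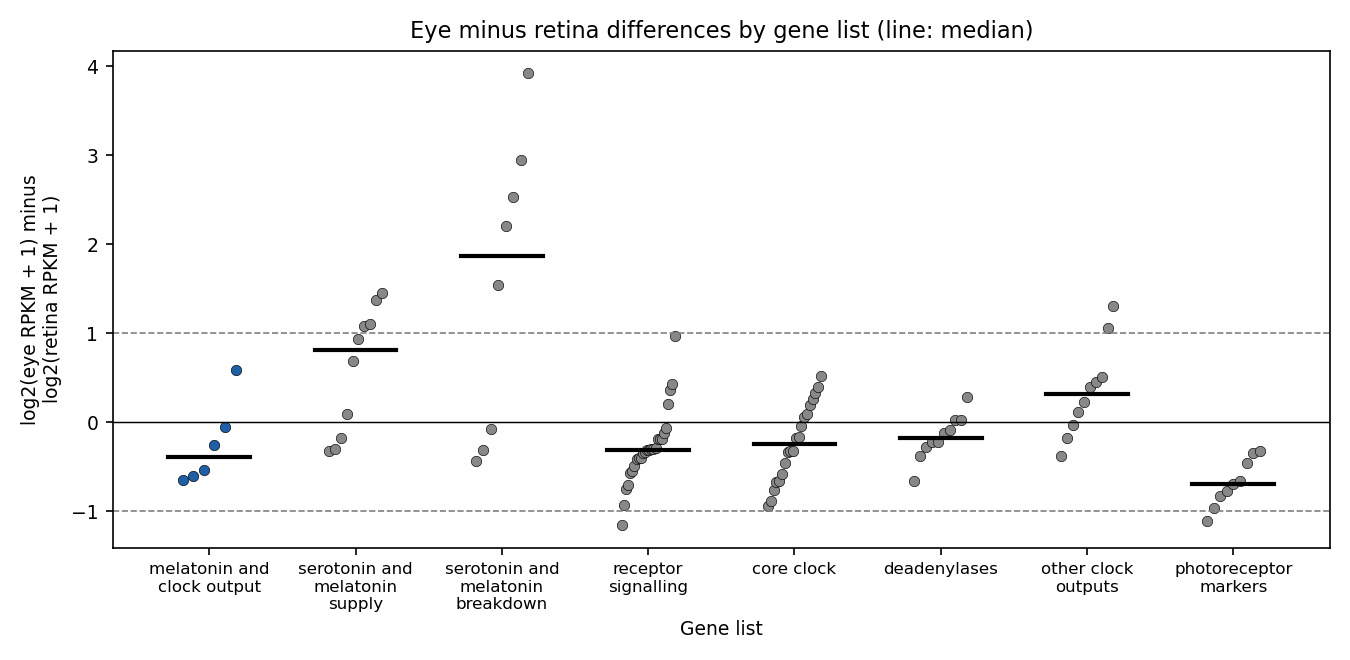
Difference of each gene, log2(eye RPKM + 1) minus log2(retina RPKM + 1), by list, with the list median as a line and dashed lines at 2-fold. The members have a median of -0.39 beside -0.69 for the photoreceptor markers, and the supply and breakdown lists have medians of 0.81 and 1.87.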

How the data were processed

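The authors deposited 1 value per transcript, taken here to be RPKM. The file headers say only expression value, so the unit was inferred from the numbers. Value times length was a whole multiple of 1 constant within 0.01 reads for 100% of transcripts in each table, and the reads recovered in this way were used for counting intervals only. Summed over transcripts they came to 19.2 times the implied total in eye and 10.5 times in retina, so sums over transcripts of a gene can count reads more than once. Swiss-Prot best hits carry, per the file headers, an E-value, a similarity in percent (positives over aligned residues) and a bit score. The submitters' processing notes name Bowtie. The assembler, search tool and counting mode are not stated in the sources used here.

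The tables were joined on the Swiss-Prot entry name without its species code. A protein's level was the RPKM of its highest transcript, with a pseudocount of 1 and no rescaling. The mark of 2-fold is a description, not a test. The members, the 6 gene lists and the markers were chosen with earlier results of these data known. List genes named are the 4 with the highest mean level and those past 2-fold. Some list names may differ from the entry names of the search, so a name not found is no measurement. Of the 10 member symbols 10 were found in RefSeq (mIctTri1.hap1), used for names only. Intervals are exact Poisson for levels and based on the Poisson variance of log counts for differences. They treat reads as independent. The functions were tested on simulated reads, with both sides drawn from the retina values. That setting does not cover differences between the transcript sets of the tissues, or reads counted more than once. The effects of 13 other settings, and of 1 added after seeing the data (a matched pair: same entry, alignment lengths within 10 residues), are described at the end. Analyses used Python 3.11.15 with pandas 2.3.3 and scipy 1.17.1.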

Additional observations from a re-analysis of the deposited data

How the results depend on the processing

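The count of members at least 2-fold higher in eye, 0, became 1 with pseudocount 0.1 (MTNR1A) and 1 with the longest transcript (HLF). That in retina, 0, became 1 with sums (DBP) and 1 with the transcript of lowest E-value (AANAT). The count higher in eye by any amount, 1, was 0 with the filter at 10 RPKM, which removed MTNR1A and NOCT, 3 with the longest transcript and 2 with length-weighted means, with a minimum length of 200 bases and with E-values of 1e-20 or lower. The count higher in retina, 5, was 3 with the longest transcript. The members' median of -0.39 moved to -0.44 with pseudocount 0.1, -0.27 with pseudocount 5, -0.47 with sums, 0.27 with the longest transcript, -0.063 with length-weighted means, -0.29 with that minimum length and with strict E-values, -0.65 with an equal total and -0.26 with matched pairs. The median of all proteins was -0.25 with an equal total.

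Over all proteins, 1577 passed 2-fold toward eye and 482 toward retina. The eye count was 921 with the filter at 10 RPKM, 815 with pseudocount 5 and 944 with matched pairs. The retina count was 265 with pseudocount 5, 2637 with sums (eye 2296), 272 with length-weighted means, 922 with an equal total (eye 1226) and 241 with matched pairs. No result was left out by library, because each table gives 1 value per tissue. No paired analysis was possible because the tables hold no value per library.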
